A study of Mus musculus with 12 samples.

Results

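The genes described here encode the fibrous and sheet-forming proteins of the extracellular matrix, the receptors that hold cells to it and the enzymes that cut it: collagens, laminins, integrins, matrix metalloproteinases (Mmp genes), their tissue inhibitors (Timp genes) and the ADAMTS proteases. Members were taken by symbol from the protein-coding genes of the deposited table, which gave 132 of its 55901 genes. Of these, 61 had a mean of at least 0.5 FPKM (fragments scaled to the exon length of the gene and to the mapped fragments of the library) over the 12 libraries and were tested, among 15016 genes tested in all. The other 71 were too low to test, and 4 of those had no read in any library (Mmp1b, Mmp7, Mmp8 and Mmp20). The symbols also took in 4 genes that are not of these families, of which Col4a3bp and Itgb1bp1 were tested and Itgb1bp2 and Itgb3bp were not.

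The cells were cortical neurons of C57BL/6J mice, isolated within 24 h of birth, treated on day 1 of culture with arabinosylcytosine, which stops dividing cells and so limits glia, and used between day 8 and day 10. All 3 groups shared that preparation and had 4 libraries each. The Control group was left uninjured, the Trauma group was scratched and collected after 24 h, and the Trauma+TGF-β1 cultures had the same scratch followed by 24 h with 10 ng/mL of transforming growth factor β1 (TGF-β1). The sources do not say that the libraries of a group came from separate cultures or animals, so p-values measure the spread between these libraries, which may be technical. The methods of the study speak of 6 samples, while 12 libraries were deposited, and how the 4 libraries of a group relate to those samples is not given in the sources used here.

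In the brain, matrix is scarce between neurons and is concentrated in the basement membranes of vessels and meninges and in a loose net of proteoglycans around cells. Collagens assemble as trimers and laminins as trimers of an alpha, a beta and a gamma chain, and integrins bind them as pairs of an alpha and a beta subunit. The metalloproteinases and ADAMTS enzymes cut these proteins, and the Timp proteins block the cutting. TGF-β1 is a classical inducer of matrix genes, is stored in the matrix in a latent form, and is freed from it by integrins that contain the Itgav product.

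The libraries held 15052486 to 17381671 reads on genes. Control library 1 stood apart from the other Control libraries in a principal component analysis, at −12.1 on the first component against 25.3 to 30.0, and counts of members and list genes are therefore given with and without it. The 8 neuronal markers summed to at least 1150 FPKM in each library. Markers of other cells were also present, several at higher sums after injury: the 8 astrocyte markers summed to 206 to 236 FPKM in Control, 263 to 324 in Trauma and, with TGF-β1, 278 to 299, and the 8 microglial markers to 20.9 to 24.9, 31.3 to 39.9 and 25.2 to 29.3. The microglial sum was mostly C1qa, C1qb and C1qc. The oligodendrocyte lineage list, with Olig1 its largest part, ran from 46.3 to 49.1, from 57.5 to 64.7 and from 56.9 to 63.4 FPKM. The mural cell list, mostly Acta2 and Notch3, ran from 3.71 to 5.05 FPKM in Control, from 7.59 to 9.17 in Trauma and from 11.8 to 13.7 in Trauma+TGF-β1. In mean, Acta2 was at 1.38, 4.43 and 6.94 FPKM, Notch3 at 1.63, 2.21 and 4.01, and Pdgfrb at 0.894, 1.24 and 1.37. Rgs5 did not rise (0.394, 0.373 and 0.337), and Tagln, Myh11, Kcnj8 and Abcc9 also had means under 0.5 FPKM in each group. Endothelial markers stayed between 1.15 and 1.72 FPKM in sum, with Tie1 at 0 in each library, and those of meningeal fibroblasts between 0.423 and 1.45. Fewer cells of a type and less RNA per cell cannot be told apart in such bulk samples.

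Of the 4 Timp and integrin genes below, Timp3, Itgav and Itgb5 passed the test between Trauma+TGF-β1 and Trauma, and Timp1 had the largest difference between Trauma and Control, so the bases just upstream of their start sites are shown. They are the plus strand of GRCm38.p6 from RefSeq, for Timp3 at chr10:86300162-86300371, for Itgav at chr2:83724147-83724396, for Itgb5 at chr16:33829415-33829664 and for Timp1 at chrX:20869916-20870165. The stretch of Timp3 is 210 bases long and the others are 250. The 40 bases that follow the Timp3 stretch, up to the RefSeq start, begin in an annotated exon and were left out of it. Capitals mark GGGCGG, the GC box, on either strand (CCGCCC on the strand shown).
Timp3: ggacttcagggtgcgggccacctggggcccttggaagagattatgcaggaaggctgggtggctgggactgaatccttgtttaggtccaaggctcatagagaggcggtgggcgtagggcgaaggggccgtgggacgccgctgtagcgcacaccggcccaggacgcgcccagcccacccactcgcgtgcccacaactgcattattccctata
Itgav: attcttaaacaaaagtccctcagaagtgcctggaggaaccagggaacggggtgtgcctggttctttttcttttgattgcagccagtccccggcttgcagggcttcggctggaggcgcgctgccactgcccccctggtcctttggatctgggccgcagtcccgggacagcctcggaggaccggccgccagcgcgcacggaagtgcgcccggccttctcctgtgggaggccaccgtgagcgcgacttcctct
Itgb5: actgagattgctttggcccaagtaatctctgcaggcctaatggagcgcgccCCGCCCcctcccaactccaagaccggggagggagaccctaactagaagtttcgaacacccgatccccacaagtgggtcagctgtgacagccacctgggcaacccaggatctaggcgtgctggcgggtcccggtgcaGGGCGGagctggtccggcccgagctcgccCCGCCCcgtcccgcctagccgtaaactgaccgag
Timp1: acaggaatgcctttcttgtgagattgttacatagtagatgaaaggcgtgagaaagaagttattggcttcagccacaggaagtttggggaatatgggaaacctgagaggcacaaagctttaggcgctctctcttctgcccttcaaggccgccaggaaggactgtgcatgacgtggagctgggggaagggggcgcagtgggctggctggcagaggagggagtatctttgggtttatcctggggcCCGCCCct
The search also covered TGANTCA, the AP-1 motif, and CAGACA, a Smad-binding motif, on both strands, with no match in these 4 stretches. Itgb5 held 3 GC boxes and Timp1 held 1, while Timp3 and Itgav held none. Over 32851 RefSeq windows of 250 bases before a start, 32.7% held a GC box, 6.75% TGANTCA and 17.1% CAGACA. A RefSeq entry was matched for 43 of the 61 tested members, and 28 of these held a GC box, 2 TGANTCA and 10 CAGACA. A member was counted if any of its windows held the motif, so these counts and the shares of windows are unlike measures.

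The first comparison, Trauma against Control, asks what the scratch did to these genes. By limma, 13 of the 61 tested members (21.3%) were upregulated and 0 downregulated at an adjusted p up to 0.05, where 3.50% of all tested genes were upregulated, 2.32% downregulated and 5.82% either. At an unadjusted p up to 0.05, limma gave 28 higher and 5 lower, and voom on the recovered reads gave 17 upregulated and 1 downregulated. The shares just given do not apply to these counts, and those of all tested genes at these settings are not given here. Over the tested members the log2 fold changes had a median of 0.15, against −0.0025 over all tested genes. The 4 Trauma libraries lay fully above the 4 Control libraries for 20 members and fully below for 1 (Col25a1), against 6.25% and 6.69% of all tested genes. These were 22 and 7 members without Control library 1, against 8.87% and 10.1% of all tested genes. The upregulated members were the collagens Col5a1, Col5a2, Col6a1, Col12a1 and Col4a5, the laminin chain Lamb2, the integrin subunits Itga5, Itga6 and Itgb1, and Mmp14, Timp1, Timp3 and Adamts3. Without Control library 1, 12 were upregulated and 3 downregulated, against 3.26% and 2.31% of all tested genes. Itga5 no longer passed there, and Adamts17, Itga3 and Mmp24 passed as lower. In a fit of these 2 groups alone, 7 were upregulated. The sums of astrocyte, microglial, oligodendrocyte lineage and mural markers were higher in each Trauma library than in each Control library. By marker, 6 of 8 astrocyte, 3 of 5 tested microglial (C1qa, C1qb and C1qc) and 2 of 5 tested oligodendrocyte lineage markers (Mbp and Olig1) were upregulated. So were 2 of 3 tested mural markers (Acta2 and Notch3), and 0 in these lists were downregulated. Olig2 was lower in mean in Trauma (7.15 against 7.90 FPKM in Control), and Mog was level (4.08 against 4.07). The neuronal sum, mostly Tubb3, was lower. Of the 8 neuronal markers, 1 was upregulated (Gad1) and 2 downregulated (Syt1 and Tubb3). The part of these marker differences in the results was not tested.

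The second comparison, Trauma+TGF-β1 against Trauma, asks what TGF-β1 changed in injured cultures, and shares its Trauma libraries with the first. Here 6 of the 61 tested members were upregulated (9.84%, against 4.64% of all tested genes) and 2 downregulated (3.28%, against 7.63%), with 12.3% of all tested genes called in either direction. The upregulated members were Col12a1, Col5a2, Timp3, Itgav, Itgb5 and Itgb8, and the downregulated members were Col5a3 and Mmp17. Their log2 fold changes had a median of 0.034, against 0.0052 over all tested genes. The Trauma+TGF-β1 libraries lay fully above the Trauma libraries for 8 members and fully below for 4, against 10.2% and 12.0% of all tested genes. Control library 1 enters this comparison through the shared estimate of the spread. Without it, 7 were upregulated and 4 downregulated, against 6.86% and 10.1% of all tested genes. Col11a1 joined the first and Mmp12 and Mmp24 the second. After a correction of each library for GC content, 4 were upregulated (Col12a1, Timp3, Itgav and Itgb5) and 0 downregulated. Of the marker sums, the mural list was higher in each Trauma+TGF-β1 library than in each Trauma library and the microglial list was lower. The astrocyte and oligodendrocyte lineage sums overlapped. Of the 8 astrocyte markers, 1 was upregulated (Aqp4) and 3 downregulated (Aldh1l1, Aldoc and Gja1). Of 5 tested microglial markers, 1 was downregulated (C1qc), and of 3 tested mural markers, 2 were upregulated (Acta2 and Notch3). The microglial marker Tmem119, below the level tested, was higher in mean with TGF-β1 (0.281 against 0.0386 FPKM). The neuronal sum, mostly Tubb3, was lower in each Trauma+TGF-β1 library. Of the 8 neuronal markers, 2 were upregulated (Map2 and Snap25) and 2 downregulated (Slc17a7 and Tubb3). The part of these marker differences in the results was not tested.

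Set against Control, a comparison that shares libraries with both others, Trauma+TGF-β1 had 16 of the 61 tested members upregulated (26.2%, against 6.85% of all tested genes) and 3 downregulated (4.92%, against 9.46%), with 16.3% of all tested genes called in either direction. The groups were fully apart for 19 members that were higher and 4 that were lower, against 7.94% and 10.6% of all tested genes. With that library left out they were 23 and 6 members, against 13.8% and 17.1% of all tested genes. The median log2 fold change was again 0.15, against 0.0031 over all tested genes. Those downregulated were the membrane-anchored metalloproteinases Mmp15, Mmp17 and Mmp24. Of those upregulated, 12 were also upregulated in Trauma, and Itgav, Itgb5, Mmp2 and Timp4 were not. Without Control library 1, 17 were upregulated and 5 downregulated, against 9.89% and 12.9% of all tested genes. Lamb1 was added to the first and Adamts17 and Itga3 to the second. Over the 3 comparisons, 22 members passed in at least 1, Col12a1, Col5a2 and Timp3 passed in all 3, and 39 passed in none. The shares of all tested genes for these joint counts are not given here, so whether the counts are unusual cannot be said.

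**Figure D1:**
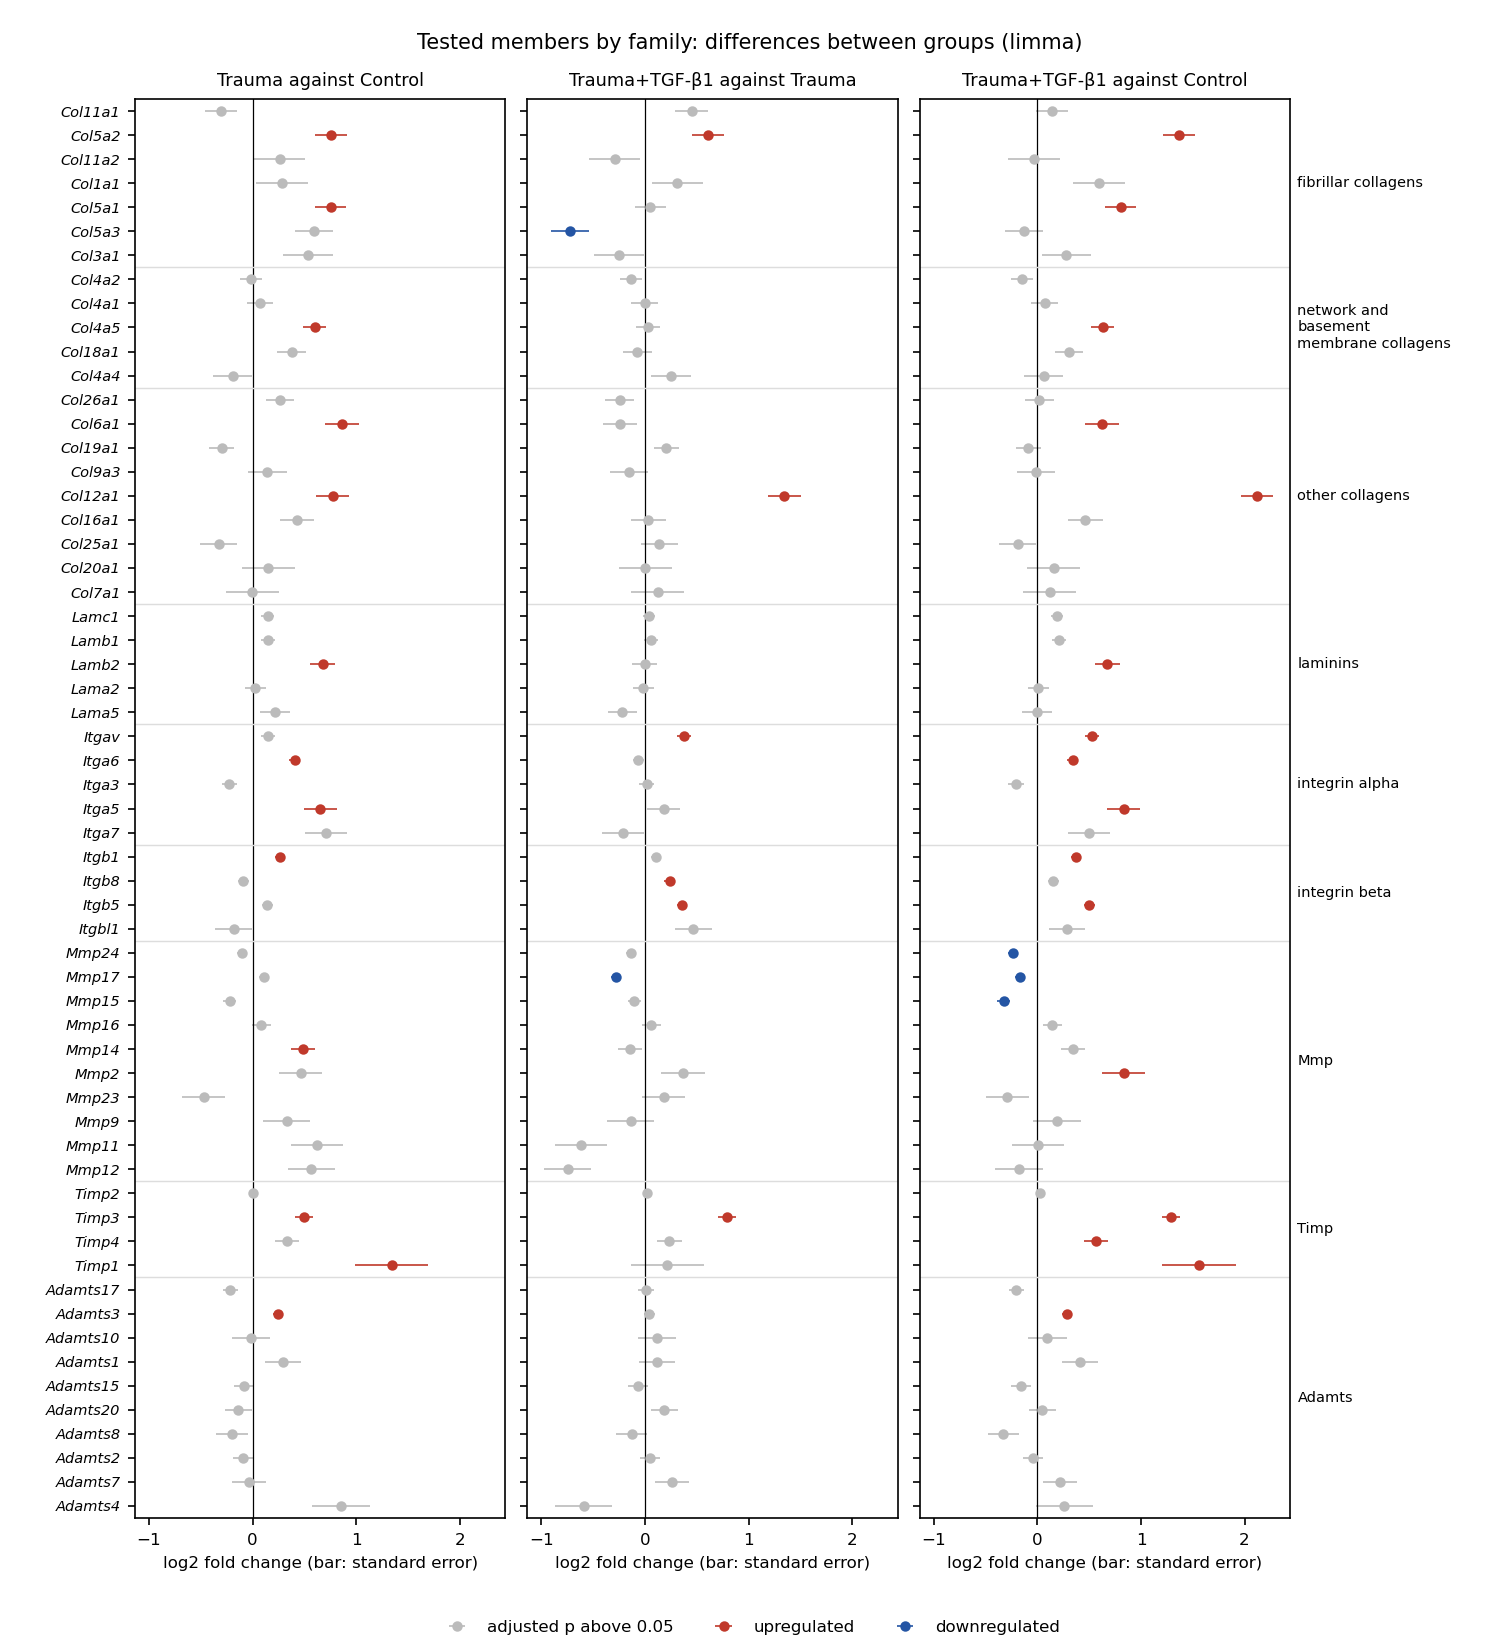
Log2 fold changes (points) with standard errors (bars) of 59 tested members, 1 row each, grouped by family and ordered by mean level, in the 3 comparisons. Red marks an upregulated and blue a downregulated member at a limma adjusted p up to 0.05: 13 red and 0 blue for Trauma against Control, 6 and 2 for Trauma+TGF-β1 against Trauma, and 16 and 3 for Trauma+TGF-β1 against Control, with Col12a1 farthest to the right at 2.12.

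Among the collagens that bind or form fibrils, Col12a1 changed most. It encodes collagen XII, which sits on the surface of collagen fibrils (ENSMUSG00000032332, chromosome 9 of GRCm38 from 79598991 to 79718831, minus strand). Col12a1 stood at 0.414, 0.448, 0.301 and 0.328 FPKM in the 4 Control libraries, at 0.647, 0.662, 0.769 and 0.716 in Trauma, and at 1.95, 1.99, 1.78 and 1.98 in Trauma+TGF-β1. The 3 groups did not overlap: every injured library lay above every Control library, and every TGF-β1 library above every Trauma library. Its log2 fold change was 0.77 between Trauma and Control (limma adjusted p = 0.0140, standard error 0.16), 1.35 between Trauma+TGF-β1 and Trauma (standard error 0.16, adjusted p = 0.00174), and 2.12 between Trauma+TGF-β1 and Control (adjusted p = 1.15e-05). In a fit of Trauma and Control alone the first of these did not pass (adjusted p = 0.107). Col12a1 is 1 of 6 tested members with a mean under 0.5 FPKM in at least 1 group, so that it reached the test through the injured groups, and its reads ran from 72 to 483 per library.

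Collagen V, which starts collagen fibrils and sets their width, has 3 chains, and these did not move alike. Col5a2 (ENSMUSG00000026042, chromosome 1 from 45374321 to 45503282) was measured at 0.556, 0.705, 0.524 and 0.649 FPKM in Control, at 0.982, 0.974, 1.14 and 1.25 in Trauma, and at 1.46, 1.87, 1.52 and 2.01 in Trauma+TGF-β1, again with no overlap between the groups. Its log2 fold change was 0.75 in Trauma (limma adjusted p = 0.0146, standard error 0.15) and 0.61 from Trauma to Trauma+TGF-β1 (standard error 0.15, adjusted p = 0.0269). The call in Trauma was lost without Trauma library 4 (adjusted p = 0.0538) and in a fit of Trauma and Control alone (adjusted p = 0.0528). The one with TGF-β1 was lost without Trauma library 1 or 2 or Trauma+TGF-β1 library 2 or 4 (adjusted p between 0.0679 and 0.0850) after the GC correction (adjusted p = 0.0583) and without a filter on low genes. Col5a1 (ENSMUSG00000026837, chromosome 2 from 27886425 to 28039514) rose with injury and did not pass between the injured groups, at 0.607, 0.632, 0.736 and 0.591 FPKM in Control, 0.987, 1.13, 1.16 and 1.31 in Trauma, and 1.22, 1.03, 1.09 and 1.42 in Trauma+TGF-β1. All injured libraries lay above all Control libraries and the injured groups overlapped, with log2 fold changes from Control of 0.75 (standard error 0.15, adjusted p = 0.0124) and 0.81 (adjusted p = 0.00488).

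Col5a3 went the other way with TGF-β1 (ENSMUSG00000004098, chromosome 9 from 20770050 to 20815067). It was at 0.611, 0.786, 1.11 and 0.724 FPKM in Control, at 1.30, 1.20, 1.12 and 1.33 in Trauma, and at 0.569, 0.781, 0.789 and 0.716 in Trauma+TGF-β1. The Trauma libraries lay above both other groups, and Control and Trauma+TGF-β1 overlapped. From Trauma to Trauma+TGF-β1 the log2 fold change was −0.72 (limma adjusted p = 0.0273, standard error 0.18), and the difference of 0.59 between Trauma and Control did not pass (adjusted p = 0.0872). Leaving out Trauma library 1, 2 or 4 or Trauma+TGF-β1 library 1, 2 or 4 ended the call (adjusted p between 0.0578 and 0.0734), as did the GC correction (adjusted p = 0.0999) and the lack of a filter on low genes.

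The classical fibroblast collagens were near the limit of what was tested. Col1a1 ran from 0.465 to 1.09 FPKM in Control, from 0.630 to 1.19 in Trauma and from 1.05 to 1.51 in Trauma+TGF-β1, and Col3a1 had a mean of 0.535 FPKM over the 12 libraries. Neither passed in a comparison, nor did Col11a1, the most abundant fibrillar collagen at a mean of 1.62 FPKM, or Col11a2. Just below the limit for testing lay Itgb2 at 0.495, Itga8 at 0.489 and Itgb1bp2 at 0.487 FPKM, and just above it Col7a1 at 0.510, Col20a1 at 0.522 and Col3a1.

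Among the other collagens, Col6a1, a chain of the beaded filaments that surround cells (ENSMUSG00000001119, chromosome 10 from 76708792 to 76726168), rose with injury. Its levels were 1.78, 2.18, 1.54 and 1.13 FPKM in Control, 3.10, 2.76, 3.27 and 2.90 in Trauma, and 2.22, 2.79, 2.85 and 2.30 in Trauma+TGF-β1. Each injured library lay above each Control library, by little in Trauma+TGF-β1 library 1, and the injured groups overlapped. The log2 fold change was 0.87 in Trauma (limma adjusted p = 0.00937, standard error 0.16) and 0.63 in Trauma+TGF-β1 against Control (standard error 0.16, adjusted p = 0.0232), of which the latter was lost without Control library 3 or Trauma+TGF-β1 library 2 or 3 (adjusted p between 0.0543 and 0.0679), without a filter on low genes (adjusted p = 0.0510) and in a fit of those 2 groups alone (adjusted p = 0.0655). Col26a1 and Col19a1, with means of 2.56 and 2.37 FPKM the other most abundant collagens of this group, did not pass in any comparison.

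Collagen IV and the laminins build basement membranes. Col4a2 and Col4a1, which form the common collagen IV trimer, were the most abundant collagens of all at 8.18 and 7.29 FPKM over the 12 libraries, and neither passed in any comparison, with log2 fold changes in Trauma of −0.01 (standard error 0.10) and 0.07 (standard error 0.13). Col4a5, a chain of less common trimers (ENSMUSG00000031274, chromosome X from 141475385 to 141689234), was at 1.51, 1.60, 1.14 and 1.48 FPKM in Control, 1.91, 2.35, 2.16 and 2.36 in Trauma, and 2.06, 2.26, 2.35 and 2.27 in Trauma+TGF-β1. Every injured library exceeded every Control library and the injured groups overlapped. The log2 fold change from Control was 0.60 in Trauma (limma adjusted p = 0.00980, standard error 0.11) and 0.63 in Trauma+TGF-β1 (adjusted p = 0.00420). The endothelial marker sums given above overlapped between all groups.

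Lamb2, the laminin beta chain known from synaptic and vascular basement membranes (ENSMUSG00000052911, chromosome 9 from 108479736 to 108490530), was the single laminin that passed. Its levels were 2.09, 3.33, 2.38 and 2.95 FPKM in Control, 4.46, 4.52, 3.98 and 4.14 in Trauma, and 4.66, 3.97, 4.01 and 4.42 in Trauma+TGF-β1. The injured libraries lay above the Control libraries and overlapped with each other, and the log2 fold change was 0.68 in both injured groups (limma adjusted p = 0.00704 and 0.00413, standard error 0.12). Lamc1 and Lamb1, the gamma and beta chains found in most laminins, had means of 6.08 and 4.24 FPKM and did not pass, at log2 fold changes from Control to Trauma+TGF-β1 of 0.19 (adjusted p = 0.0516) and 0.21 (adjusted p = 0.0531). Without Control library 1, Lamb1 passed there (adjusted p = 0.0109). The alpha chains Lama2 and Lama5 stood at 1.59 and 1.40 FPKM and passed in no comparison.

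**Figure D2:**
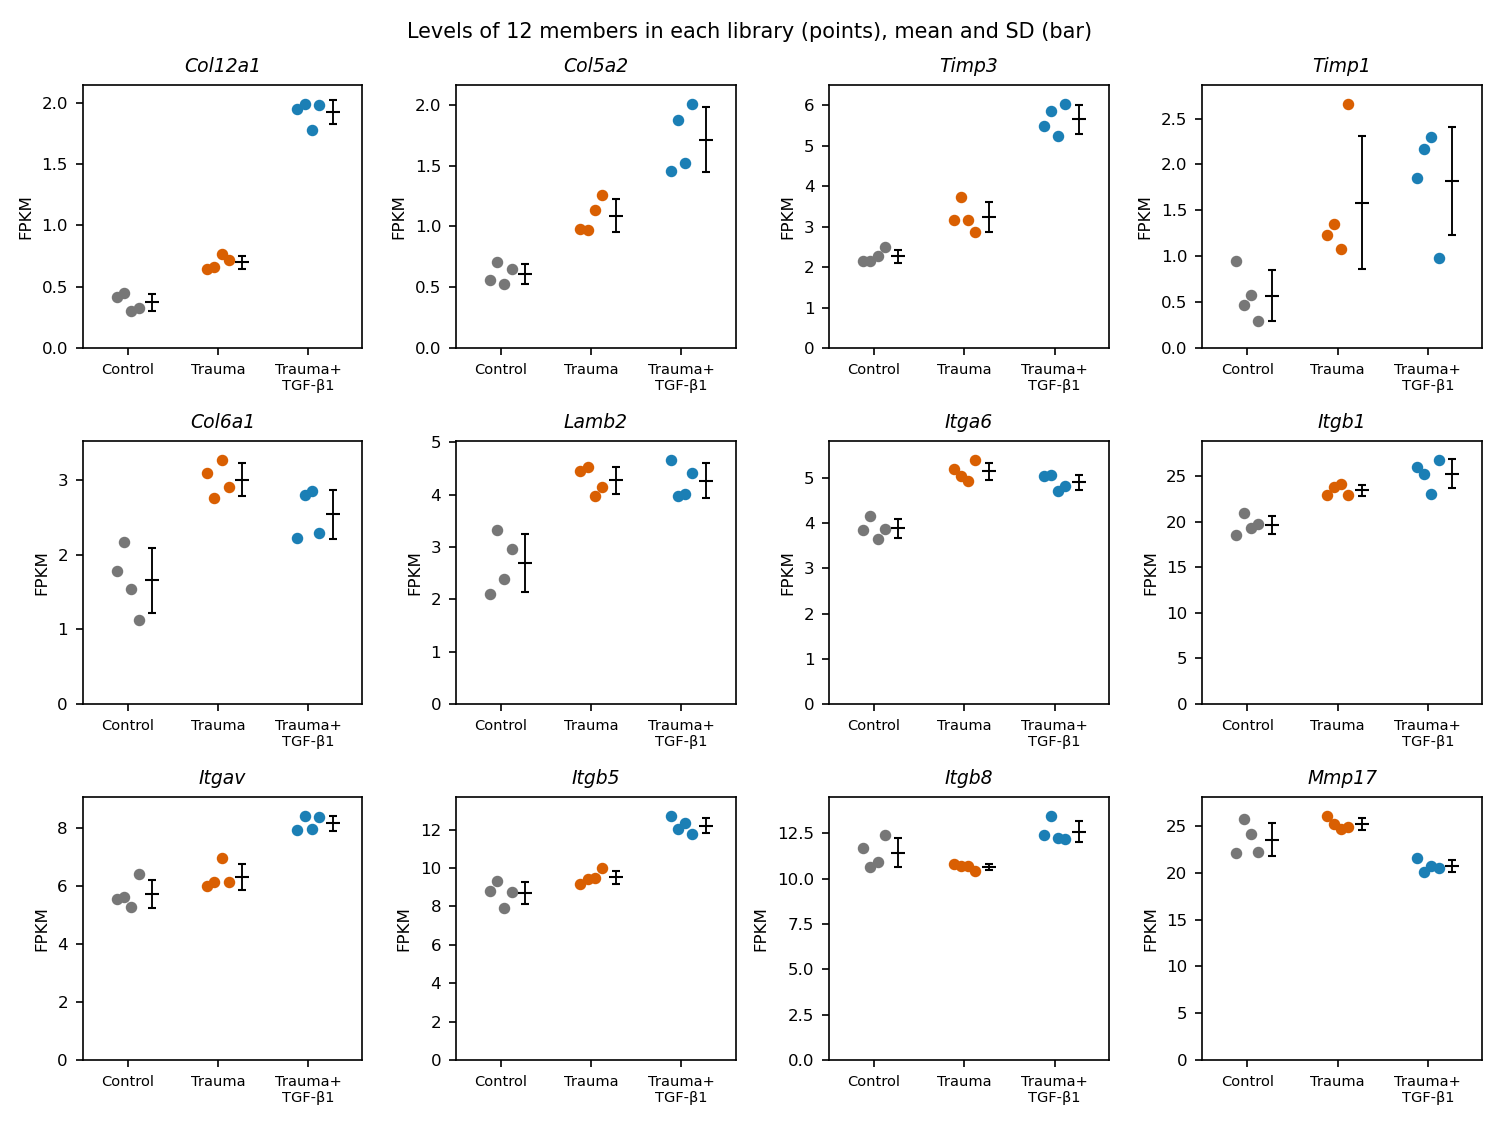
FPKM of 12 members in each library (points, 4 per group, with Control gray, Trauma orange and Trauma+TGF-β1 blue), with the mean and SD of each group beside them and each axis starting at 0. Col12a1, Col5a2 and Timp3 step up between the 3 groups, Lamb2 and Itga6 separate Control from both injured groups, and Itgav and Itgb5 separate Trauma+TGF-β1 from the others.

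Among the integrins, Itgav, Itgb5 and Itgb8 were higher with TGF-β1 than after injury alone. Itgav, which pairs with several beta subunits (ENSMUSG00000027087, chromosome 2 from 83724397 to 83806916), was at 5.57, 5.63, 5.27 and 6.40 FPKM in Control, at 5.99, 6.15, 6.97 and 6.13 in Trauma, and at 7.92, 8.42, 7.96 and 8.38 in Trauma+TGF-β1. Control and Trauma overlapped, while the TGF-β1 libraries lay above all others. The log2 fold change from Trauma was 0.37 (limma adjusted p = 0.00889, standard error 0.067), from Control 0.52 (adjusted p = 0.000567), and between Trauma and Control 0.15 (adjusted p = 0.243). Itgb5, a partner of Itgav in a vitronectin receptor (ENSMUSG00000022817, chromosome 16 from 33829665 to 33949338), showed the same order, at 8.82, 9.33, 7.91 and 8.73 FPKM, then 9.19, 9.44, 9.50 and 9.98, then 12.7, 12.0, 12.3 and 11.8. Its TGF-β1 libraries were again above all others, with a log2 fold change from Trauma of 0.36 (standard error 0.053, adjusted p = 0.00441) and from Control of 0.50 (adjusted p = 0.000150). The calls of both genes were kept under each of the 28 alternatives.

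Itgb8, whose product with that of Itgav frees TGF-β from its latent form (ENSMUSG00000025321, chromosome 12 from 119158022 to 119238802), was at 11.7, 10.7, 10.9 and 12.4 FPKM in Control, 10.8, 10.7, 10.7 and 10.4 in Trauma, and 12.4, 13.5, 12.3 and 12.2 in Trauma+TGF-β1. All TGF-β1 libraries exceeded all Trauma libraries, with overlap with Control. From Trauma to Trauma+TGF-β1 the log2 fold change was 0.24 (limma adjusted p = 0.0167, standard error 0.053). It did not pass without Trauma+TGF-β1 library 2 (adjusted p = 0.0539), after the correction for gene length (adjusted p = 0.0563) or after that for GC content, where it was 0.12 (adjusted p = 0.132).

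Itgb1, Itga6 and Itga5 rose in Trauma against Control. Itgb1, the shared beta subunit of most of these receptors and the most abundant integrin gene measured (ENSMUSG00000025809, chromosome 8 from 128685654 to 128733200), went from 18.5, 21.0, 19.4 and 19.8 FPKM in Control to 22.9, 23.8, 24.2 and 22.9 in Trauma and 26.0, 25.3, 23.0 and 26.8 in Trauma+TGF-β1. Itga6, a subunit of laminin receptors (ENSMUSG00000027111, chromosome 2 from 71745616 to 71858416), was at 3.85, 4.17, 3.66 and 3.88 FPKM, then 5.19, 5.05, 4.94 and 5.40, then 5.03, 5.06, 4.71 and 4.83. For both genes each injured library lay above each Control library and the injured groups overlapped. The log2 fold change of Itgb1 was 0.26 in Trauma (limma adjusted p = 0.0106, standard error 0.051) and 0.37 in Trauma+TGF-β1 against Control (adjusted p = 0.000804). That of Itga6 was 0.41 (standard error 0.055, adjusted p = 0.00120) and 0.34 (adjusted p = 0.00231). These calls of Itgb1 and Itga6 were kept under each of the 28 alternatives.

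Itga5, the alpha subunit of the main fibronectin receptor (ENSMUSG00000000555, chromosome 15 from 103344286 to 103366763), stood at 0.593, 0.739, 0.645 and 0.881 FPKM in Control, 1.29, 1.15, 1.03 and 1.19 in Trauma, and 1.64, 1.35, 1.27 and 1.11 in Trauma+TGF-β1. The injured libraries lay above the Control libraries, with log2 fold changes of 0.65 (limma adjusted p = 0.0332, standard error 0.16) and 0.84 (standard error 0.16, adjusted p = 0.00546). The call in Trauma rested on the full set of libraries: it was lost without Control library 1, 2 or 3 or any 1 of the Trauma libraries (adjusted p between 0.0529 and 0.0896), and under 6 of the other alternatives (adjusted p between 0.0525 and 0.0763). Itga3, another laminin receptor subunit, ran from 4.33 to 5.47 FPKM in Control and from 4.11 to 4.49 in Trauma, a log2 fold change of −0.22 (adjusted p = 0.113) that passed without Control library 1, at −0.29 (adjusted p = 0.0210). Itga7 was listed from 0.582 to 0.954 FPKM in Control and from 1.01 to 1.54 in Trauma, apart but not past the test (adjusted p = 0.0620), and Itgbl1, which resembles beta subunits but is not known to pair with an alpha chain, passed in no comparison.

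Summed over the 10 integrin beta symbols, the level ran from 40.9 to 44.5 FPKM in Control, from 45.9 to 47.5 in Trauma and from 51.2 to 54.8 in Trauma+TGF-β1, with no overlap. The 18 integrin alpha genes summed to 17.0 to 19.4, 19.5 to 21.0 and 21.7 to 23.0 FPKM, also apart, and the 11 laminins to 15.8 to 16.5, 18.9 to 19.3 and 18.4 to 20.0, where the injured groups overlapped. The 11 network and basement membrane collagens overlapped in all groups, between 18.5 and 23.6 FPKM. The Control sums without library 1 began at 17.7 FPKM for integrin alpha genes and 16.1 for laminins, and the other 2 ranges were unchanged. These sums are dominated by the most abundant genes and are given without a test.

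**Figure D3:**
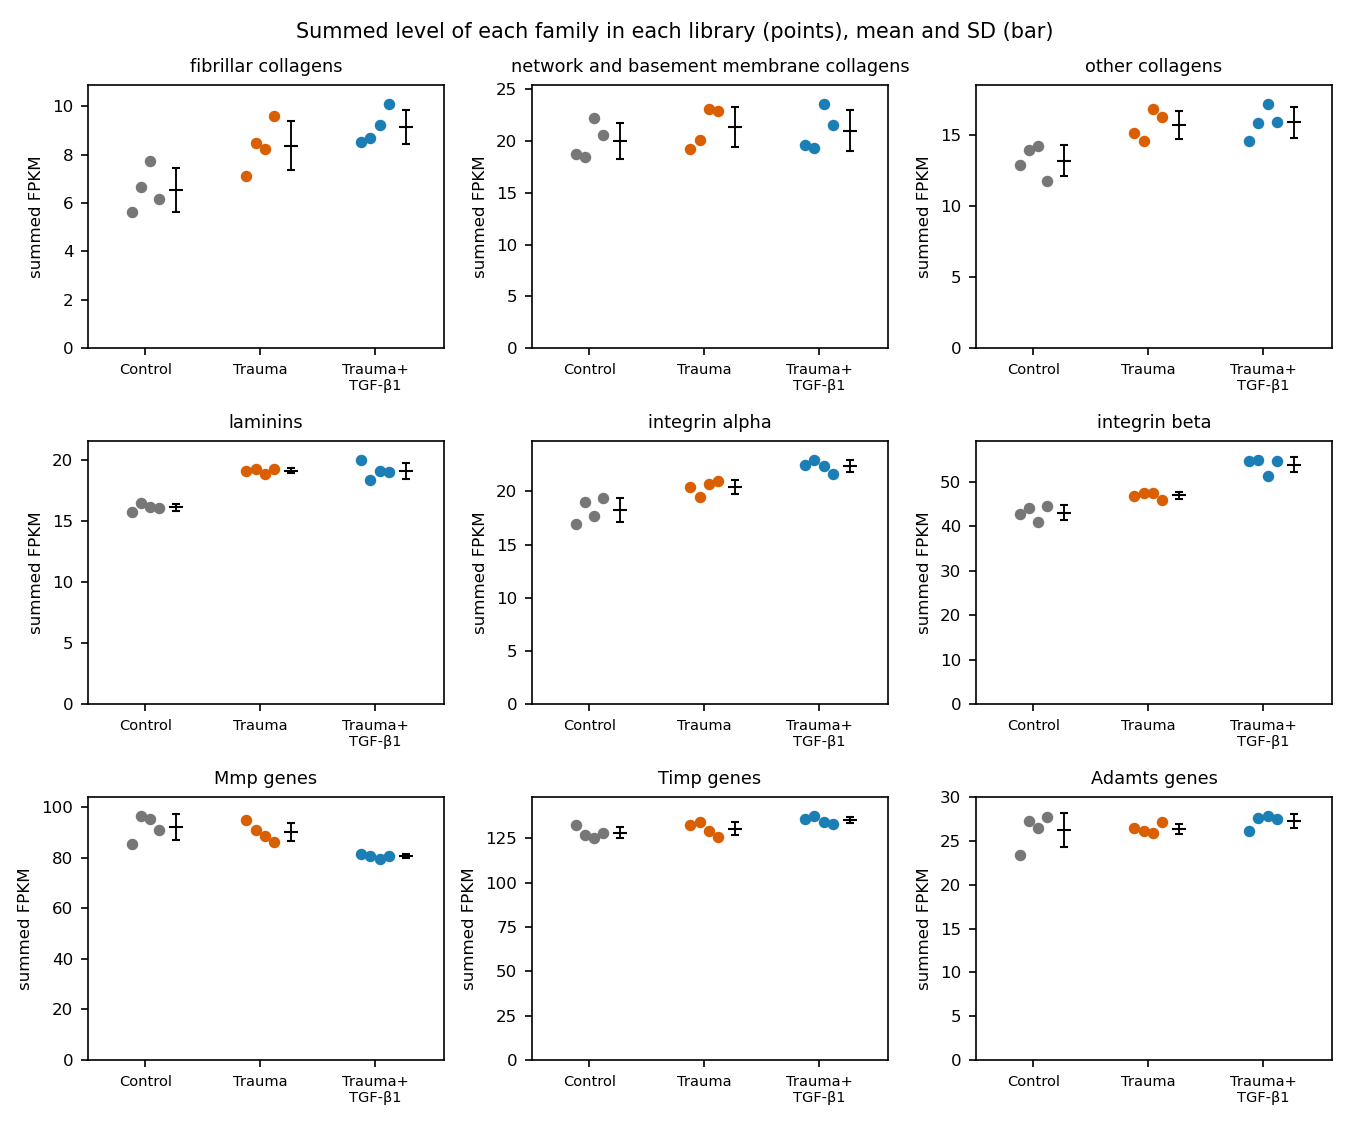
Summed FPKM of each of 9 families, untested members included, in each library (points), with the mean and SD of each group and axes that start at 0. Integrin beta sums separate the 3 groups (highest Control 44.5, lowest Trauma 45.9, highest Trauma 47.5, lowest Trauma+TGF-β1 51.2), and Mmp sums are lowest in Trauma+TGF-β1 (79.6 to 81.7).

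The metalloproteinases measured were mainly those anchored in the cell membrane, and the 3 most abundant were lower with TGF-β1 than in Control. Mmp24 (ENSMUSG00000027612, chromosome 2 from 155775342 to 155818366), a neuronal protease that cuts cadherins, was at 36.2, 40.6, 42.4 and 40.4 FPKM in Control, 38.5, 36.9, 36.9 and 35.3 in Trauma, and 32.4, 33.8, 33.9 and 33.7 in Trauma+TGF-β1. Mmp15 (ENSMUSG00000031790, chromosome 8 from 95352268 to 95375080) was at 16.6, 18.8, 17.6 and 17.5 FPKM, then 16.6, 15.6, 14.5 and 13.4, then 14.5, 13.2, 13.7 and 14.3. Mmp17, attached by a lipid anchor (ENSMUSG00000029436, chromosome 5 from 129584169 to 129611099), was at 22.2, 25.7, 24.1 and 22.2 FPKM, then 26.1, 25.2, 24.7 and 24.9, then 21.6, 20.1, 20.7 and 20.5. For all 3 genes the TGF-β1 libraries lay below the Control libraries, and Control overlapped with Trauma. Against Control the log2 fold change of Trauma+TGF-β1 was −0.24 for Mmp24 (limma adjusted p = 0.00614, standard error 0.047), −0.33 for Mmp15 (standard error 0.063, adjusted p = 0.00593) and −0.17 for Mmp17 (standard error 0.048, adjusted p = 0.0334). Against Trauma it was −0.28 for Mmp17 (standard error 0.048, adjusted p = 0.00806) and did not pass for Mmp24 (−0.14, adjusted p = 0.0738) or Mmp15 (−0.10, adjusted p = 0.309).

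After the GC correction the calls of Mmp15 (adjusted p = 0.104) and Mmp17 (adjusted p = 0.141 against Control, 0.0579 against Trauma) were lost. That of Mmp24 against Control was kept there. It was lost with the GC correction and a block for replicate number together (log2 fold change −0.15, adjusted p = 0.0586). Leaving out Control library 2 or 3 or Trauma+TGF-β1 library 2, 3 or 4 also ended the call of Mmp17 against Control (adjusted p between 0.0590 and 0.0916), as did 7 of the other alternatives, the GC correction among them (adjusted p between 0.0554 and 0.141). Without Control library 1, Mmp24 passed in all comparisons, at log2 fold changes of −0.15 in Trauma against Control, −0.14 in Trauma+TGF-β1 against Trauma and −0.28 in Trauma+TGF-β1 against Control. Mmp24 shares 637 exon bases with BC029722 on the opposite strand, and reads of overlapping genes on opposite strands cannot be told apart in these libraries. BC029722 itself had log2 fold changes of 0.40, −0.32 and 0.081 in the same comparisons, and passed in none (limma adjusted p = 0.0651, 0.0867 and 0.676). The neuronal marker sum, mostly Tubb3, was also lowest in Trauma+TGF-β1, from 1150 to 1190 FPKM against 1360 to 1420 in Control. Of the 8 neuronal markers, 3 were upregulated in that comparison (Gad1, Gad2 and Map2) and 4 downregulated (Rbfox3, Slc17a7, Syt1 and Tubb3). The part of these marker differences in the Mmp results was not tested.

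Of the other metalloproteinases, Mmp14 rose in Trauma and Mmp2, a gelatinase, in Trauma+TGF-β1 against Control. Mmp14, the membrane protease that turns the Mmp2 precursor into the active enzyme (ENSMUSG00000000957, chromosome 14 from 54431612 to 54445364), was at 1.38, 1.91, 2.05 and 1.89 FPKM in Control, 2.33, 2.79, 2.39 and 2.68 in Trauma, and 2.37, 2.15, 2.31 and 2.33 in Trauma+TGF-β1. The Control libraries lay below both other groups, and the log2 fold change was 0.49 in Trauma (limma adjusted p = 0.0278, standard error 0.11) and 0.35 in Trauma+TGF-β1 (adjusted p = 0.0592). The call of Mmp14 in Trauma was lost without Trauma library 2, 3 or 4 (adjusted p between 0.0525 and 0.0872), without a filter on low genes (adjusted p = 0.0613) and in a fit of Trauma and Control alone (adjusted p = 0.0865). Mmp2 (ENSMUSG00000031740, chromosome 8 from 92827291 to 92853420) was at 0.656, 1.24, 0.830 and 0.654 FPKM in Control, 1.24, 1.02, 0.973 and 1.45 in Trauma, and 1.77, 1.77, 1.37 and 1.24 in Trauma+TGF-β1. The lowest Trauma+TGF-β1 library barely exceeded the highest Control library, and the log2 fold change between these groups was 0.83 (standard error 0.21, adjusted p = 0.0199). The call of Mmp2 was lost without Control library 4 or Trauma+TGF-β1 library 1 or 2 (adjusted p between 0.0505 and 0.0631). Mmp9, the other gelatinase, had a mean of 0.637 FPKM and passed in no comparison, and Mmp12, the macrophage elastase, was lower in each Trauma+TGF-β1 library than in each Trauma library without passing (log2 fold change −0.74, adjusted p = 0.0529; −0.74, adjusted p = 0.0394 without Control library 1).

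Of the inhibitors, 3 of the 4 Timp genes were upregulated in Trauma+TGF-β1 against Control. Timp3, which stays bound to the matrix and also blocks ADAM and ADAMTS proteases (ENSMUSG00000020044, chromosome 10 from 86300372 to 86349506), was at 2.15, 2.14, 2.27 and 2.49 FPKM in Control, 3.17, 3.74, 3.17 and 2.86 in Trauma, and 5.47, 5.86, 5.23 and 6.03 in Trauma+TGF-β1. The 3 groups were apart in steps, with log2 fold changes of 0.50 from Control to Trauma (limma adjusted p = 0.00563, standard error 0.086), 0.79 from Trauma to Trauma+TGF-β1 (standard error 0.086, adjusted p = 0.00138) and 1.29 from Control to Trauma+TGF-β1 (adjusted p = 4.61e-06). All of its calls were kept under each of the 28 alternatives. Timp3 lies inside Syn3 on the opposite strand and shares 1733 of its 8144 exon bases with it. Syn3 itself had log2 fold changes of 0.16, 0.13 and 0.29 in the same comparisons, and passed in none (adjusted p = 0.451, 0.434 and 0.0741).

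Timp1, a soluble inhibitor known to be induced by injury (ENSMUSG00000001131, chromosome X from 20870166 to 20874735), rested on 4 to 42 reads per library. It was at 0.951, 0.464, 0.573 and 0.292 FPKM in Control, 1.23, 1.36, 1.08 and 2.66 in Trauma, and 1.85, 2.16, 2.30 and 0.985 in Trauma+TGF-β1. All injured libraries lay above all Control libraries, the lowest of them only slightly. The log2 fold change was 1.34 in Trauma (limma adjusted p = 0.0476, standard error 0.36) and 1.56 in Trauma+TGF-β1 against Control (standard error 0.36, adjusted p = 0.0127). The call in Trauma was lost under 20 of the 28 alternatives, among them the removal of Control library 2, 3 or 4, of any Trauma library or of Trauma+TGF-β1 library 1, 2 or 3 (adjusted p between 0.0591 and 0.134). Timp1 lies in an intron of Syn1 on the opposite strand, at a mean of 155 FPKM, with no shared exon bases.

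Timp4 (ENSMUSG00000030317, chromosome 6 from 115241892 to 115252205) was at 2.26, 1.76, 1.56 and 2.07 FPKM in Control, 2.22, 2.12, 2.61 and 2.68 in Trauma, and 2.87, 2.61, 2.92 and 2.92 in Trauma+TGF-β1. It was higher in Trauma+TGF-β1 than in Control without overlap, by a log2 difference of 0.57 (limma adjusted p = 0.00858, standard error 0.12), while Trauma overlapped with both groups. It shares 90 exon bases with Syn2 on the opposite strand, which passed in no comparison. Timp2, the inhibitor that also helps Mmp14 to activate Mmp2, was by far the most abundant member, between 118 and 127 FPKM in every library, and passed in no comparison, with a log2 fold change in Trauma of 0.01 (standard error 0.031).

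Of the 10 tested ADAMTS genes, Adamts3 was the one that passed. Its product trims procollagen and cuts reelin (ENSMUSG00000043635, chromosome 5 from 89677087 to 89883334). Adamts3 was at 4.08, 4.25, 3.99 and 4.28 FPKM in Control, 5.09, 5.08, 4.68 and 4.77 in Trauma, and 4.96, 5.29, 4.94 and 4.99 in Trauma+TGF-β1. Control lay below both injured groups, which overlapped, with log2 fold changes of 0.24 (limma adjusted p = 0.0163, standard error 0.051) and 0.29 (standard error 0.051, adjusted p = 0.00391). The call in Trauma was lost without Trauma library 2 (adjusted p = 0.0544) and in a fit of Trauma and Control alone (adjusted p = 0.0562). Adamts17, the most abundant ADAMTS gene at 5.26 FPKM, and Adamts10, at 3.04 FPKM, did not pass with all libraries. Adamts4, which cuts the brain proteoglycans, was higher in each Trauma library (0.746 to 0.965 FPKM) than in each Control library (0.264 to 0.587). It did not pass, at a log2 fold change of 0.85 (adjusted p = 0.103). With a Control mean of 0.439 FPKM it reached the test through the injured groups.

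The genes that make collagen, other matrix proteins, adhesion adaptors and other matrix proteases were read from 4 further lists. Their counts stand against all tested genes, of which 3.50% were upregulated and 2.32% downregulated in Trauma. These shares were 4.64% and 7.63% in Trauma+TGF-β1 against Trauma, and 6.85% and 9.46% in Trauma+TGF-β1 against Control. Without Control library 1 the 3 pairs were 3.26% and 2.31%, 6.86% and 10.1%, and 9.89% and 12.9%. Of 20 tested genes that modify, process and crosslink collagen, 4 were upregulated in Trauma, 3 in Trauma+TGF-β1 against Trauma and 7 in Trauma+TGF-β1 against Control, with 0 downregulated in each and the same counts without Control library 1, and the median log2 fold changes were 0.29, −0.0041 and 0.24. Plod2, the lysyl hydroxylase of collagen crosslinks, was at 1.43, 1.18, 1.06 and 1.67 FPKM in Control, 2.12, 1.71, 1.98 and 2.12 in Trauma, and 3.81, 3.83, 3.21 and 4.08 in Trauma+TGF-β1. Its groups did not overlap, and its log2 fold change was 0.56 in Trauma (limma adjusted p = 0.0321, standard error 0.14) and 0.88 from Trauma to Trauma+TGF-β1 (standard error 0.14, adjusted p = 0.00514). The crosslinking enzyme Loxl1 rose from 0.782 ± 0.223 to 1.49 ± 0.221 FPKM (mean ± SD, n = 4) between Trauma and Trauma+TGF-β1, a log2 fold change of 0.88 (standard error 0.26, adjusted p = 0.0453). Lox went from 0.409 ± 0.146 FPKM in Control to 1.19 ± 0.409 in Trauma+TGF-β1, a log2 fold change of 1.35 (standard error 0.32, adjusted p = 0.0153), and with a Control mean under 0.5 FPKM it reached the test through the injured groups. The prolyl hydroxylase subunit P4ha3 rose in Trauma from 2.63 ± 0.561 to 4.38 ± 0.779 FPKM, a log2 fold change of 0.73 (standard error 0.15, adjusted p = 0.0169).

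Of 38 tested matrix glycoproteins and proteoglycans, 6 were upregulated and 2 downregulated in Trauma, 10 and 2 in Trauma+TGF-β1 against Trauma, and 13 and 4 in Trauma+TGF-β1 against Control. The last 2 pairs were 12 and 2, and 15 and 3 without Control library 1. Ccn1, a matricellular ligand of integrins, rose in both steps, from 7.01 ± 0.985 to 16.5 ± 4.53 and 27.2 ± 3.45 FPKM (mean ± SD, n = 4), with log2 fold changes of 1.20 (limma adjusted p = 0.00208, standard error 0.18) and 0.76 (standard error 0.18, adjusted p = 0.0198). Ccn2 rose more with TGF-β1, at 1.96 ± 0.210, 3.53 ± 0.0936 and 10.8 ± 0.221 FPKM in the 3 groups. Its log2 fold change was 0.83 in Trauma (adjusted p = 6.17e-05) and 1.59 from Trauma to Trauma+TGF-β1 (adjusted p = 3.39e-07). Npnt, a ligand of the integrin of Itga8 and Itgb1, fell in Trauma from 38.6 ± 1.01 to 28.8 ± 1.91 FPKM (log2 fold change −0.41, adjusted p = 0.000952), and Bcan, the proteoglycan brevican, fell from 38.7 ± 1.61 in Trauma to 31.6 ± 0.608 in Trauma+TGF-β1 (log2 fold change −0.29, adjusted p = 0.0213). Sparcl1, secreted by astrocytes, fell from 205 ± 6.57 in Trauma to 170 ± 7.15 FPKM in Trauma+TGF-β1 (log2 fold change −0.26, adjusted p = 0.00514).

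Of 26 tested adhesion adaptors, 4 were upregulated and 1 downregulated in Trauma, 0 and 2 in Trauma+TGF-β1 against Trauma, and 6 and 2 in Trauma+TGF-β1 against Control. With Control library 1 left out the last 2 pairs were 1 and 2, and 8 and 2. Cd151, a tetraspanin that holds laminin-binding integrins, rose in Trauma from 7.49 ± 0.665 to 11.1 ± 0.736 FPKM (log2 fold change 0.57, limma adjusted p = 0.000670) and was lower in Trauma+TGF-β1 than in Trauma, at 9.08 ± 0.523 (log2 fold change −0.28, adjusted p = 0.0260). Of 22 tested genes for other proteases and inhibitors, 2 were upregulated and 0 downregulated in Trauma, 3 and 1 in Trauma+TGF-β1 against Trauma, and 7 and 0 in Trauma+TGF-β1 against Control. These were 1 and 0, 5 and 1, and 5 and 0 without Control library 1. Plat, the tissue plasminogen activator, was at 2.76 ± 0.232, 4.76 ± 0.356 and 4.77 ± 0.591 FPKM in the 3 groups, a log2 fold change of 0.77 in Trauma (standard error 0.095, adjusted p = 0.000628). Adam17, a shedding protease that the Timp3 product blocks, rose from Trauma to Trauma+TGF-β1 from 1.84 ± 0.208 to 2.56 ± 0.161 FPKM (log2 fold change 0.47, standard error 0.11, adjusted p = 0.0199). The medians of these 2 lists stood at 0.070 and 0.093 in Trauma, at 0.011 and 0.0072 from Trauma to Trauma+TGF-β1, and at 0.096 and 0.14 in Trauma+TGF-β1 against Control, and those of the glycoproteins at 0.079, 0.12 and 0.22.

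**Figure D4:**
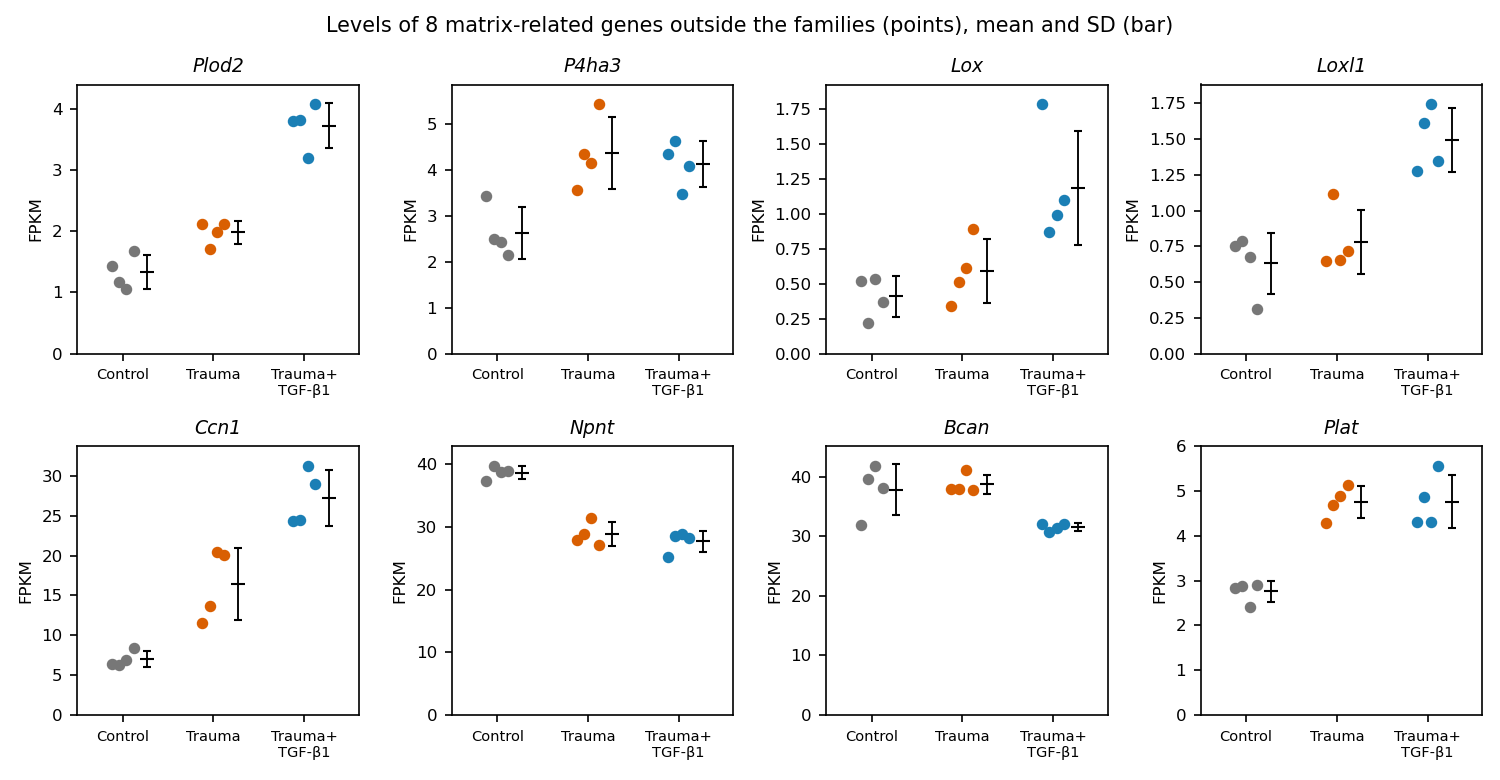
FPKM of 8 genes that work with the families in each library (points, 4 per group), with the mean and SD of each group and axes that start at 0. Plod2 and Ccn1 are higher in each Trauma+TGF-β1 library than in any other library, Npnt is highest in Control (37.3 to 39.7), and Bcan is lower in Trauma+TGF-β1 (30.8 to 32.05) than in Trauma (37.8 to 41.1).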

How the data were processed

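RNA was sequenced from 12 libraries in 3 groups of 4, grouped by the titles of the labels. The authors aligned paired-end reads with HISAT2 2.0.5 to mm10 and counted them per gene, and the deposited table holds FPKM for 55901 genes together with each gene's exon length in base pairs, as the authors used it for FPKM. The gene coordinates of the table are those of GRCm38. The product of FPKM and length was a whole number of steps of 1 read in each library (tolerance 0.05 reads), which gave the reads behind each value. The kit did not keep strand.

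Median-of-ratios factors (0.99906 to 1.0115) scaled the FPKM of each library, 0.1 was added and log2 values were taken, so that fold changes of low genes are understated. Genes with a mean of at least 0.5 FPKM were compared in one fit of the 12 libraries with limma 3.58.1 in R 4.3.3 (eBayes with a trend, Benjamini-Hochberg adjustment over the 15016 genes of each comparison, threshold 0.05). This took the place of the authors' count test, since the deposited values are not counts. The fit was tested on simulated data. Levels are FPKM as deposited. The members, the lists and the tests were chosen with earlier results of these data known. No test was made over a list. Members named are the 8 up and 8 down called in a comparison with the largest log2 fold change (at least 1 FPKM in the higher group, no overlap) and the 3 most abundant of each family. From the further lists, up to 2 genes in each direction and comparison were chosen by the same rule, and not all of them are named. Other members past the threshold are given with their values. Itga7, Itgbl1, Mmp9, Mmp12, Adamts4, Col1a1, Col3a1, Col7a1, Col20a1, Col25a1, Itgb2, Itga8, Lama2, Lama5 and Col8a1 were named after their values were seen. The replicate numbers are not said to mark animals, litters or days, so the main fit did not pair the libraries and a replicate block was an alternative. Motifs were searched in RefSeq windows with Python 3.11.15, and figures drawn with matplotlib 3.10.9. Alternatives were another pseudocount, filter, scaling, fit, block, correction for gene length or GC content (loess, span 0.3), voom on the recovered reads, protein-coding genes alone, other thresholds and each library left out.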

Additional observations from a re-analysis of the deposited data

Results flagged for a closer look

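Of 99 sets of 4 libraries examined (33 genes in 3 groups), 4 had 1 library whose distance to the nearest other library took a share of the group's range above Dixon's 95% critical value, and chance gives this in about 1 of 20 groups. Itgav in Trauma library 3 was at 6.97 FPKM, with the next library at 6.15. Adamts3 in Trauma+TGF-β1 library 2 was at 5.29 FPKM, above the next at 4.99. Timp4 in Trauma+TGF-β1 library 2 was at 2.61 FPKM, below the next at 2.87. Mmp24 in Trauma+TGF-β1 library 1 was at 32.4 FPKM, below the next at 33.7. Leaving out these libraries ended none of the calls of Itgav, Adamts3, Timp4 and Mmp24 in the comparisons of Trauma+TGF-β1 with Control or Trauma.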

How the results depend on the processing

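Of 40 calls (a member in a comparison), 25 were kept under each alternative run on them, and 0 changed direction. The alternatives were 28, of which 12 leave out a library, and 4 of the 25 calls (Col12a1 and Col5a1) had 27, since these genes lie under the filter of 1 FPKM. For Trauma against Control (13 up, 0 down), the count up was 7 in a fit of the 2 groups, 28 at an unadjusted p and 8 at a minimum log2 change of 0.5 in size. The count down was 1 with the gene length correction, with protein-coding genes alone and with voom, 4 with the GC correction, 2 with that and the replicate block, and 5 at an unadjusted p. For Trauma+TGF-β1 against Trauma (6 up, 2 down), the count up was 3 at a minimum log2 change of 0.5 in size. The count down was 1 at that threshold, without a filter, with a filter at 1 FPKM and with the GC correction and block, 0 with the GC correction alone and 5 at an unadjusted p. For Trauma+TGF-β1 against Control (16 up, 3 down), the count up was 25 at an unadjusted p. The count down was 5 with the gene length correction, with and without the block, and at an unadjusted p, 1 with the GC correction, 0 with that and the block and 0 at a minimum log2 change of 0.5 in size. The cause of these shifts was not tested, and the shares of all tested genes under these settings are not given here.

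With 1 library left out, the counts ran from 9 to 13 up and 0 to 3 down in Trauma against Control, 4 to 7 and 1 to 4 in Trauma+TGF-β1 against Trauma, and 14 to 17 and 2 to 5 in Trauma+TGF-β1 against Control. With the replicate block the counts were 11 and 0, 7 and 2, and 16 and 2, and the calls lost were those of Itga5 and Timp1 in Trauma (adjusted p = 0.0690 and 0.0966) and Mmp17 against Control (adjusted p = 0.0588). Deviations of same-numbered libraries from their group means correlated between −0.0088 and 0.076, and those of differently numbered libraries between −0.091 and 0.073. These values do not settle whether the numbers mark pairs. Depth limits the 71 members not tested and Timp1, with as few as 4 reads in a library.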

Other observations

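Below the level that was tested, Col8a1, a short-chain collagen of vessel walls, would have passed in Trauma+TGF-β1 against Control without the filter, at group means of 0.188 (Control), 0.320 (Trauma) and 0.663 FPKM (Trauma+TGF-β1), a log2 difference of 1.43 (limma adjusted p = 0.0163, standard error 0.29).

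Col4a1 and Col4a2, which start next to each other on opposite strands and share 22 exon bases, had their highest values in the same libraries. Library 3 held the highest value of both in each group: in Control it was at 8.87 and 9.36 FPKM, in Trauma at 8.59 and 9.31, and with TGF-β1 at 8.23 and 8.99. The lowest values in a group were between 5.95 and 6.79 FPKM for Col4a1 and between 6.62 and 7.87 for Col4a2.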
